A study of Mus musculus with 20 samples.

Results

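A 50 kb window of mouse chromosome 15 (mm9), which holds the paired keratin genes Krt8 and Krt18, was followed through methylation of its SmaI/XmaI intervals in neurons and non-neurons of the mouse hypothalamus. An interval is the stretch between neighbouring CCCGGG sites, and it belonged to the window when it overlapped it. This gave 4 of the 50782 intervals in the table, and 3 of the 4 held enough reads to be tested. They are called here by their length: a 1058-bp interval (chr15:101833492-101834550), a 66-bp interval (chr15:101834550-101834616), a 292-bp interval (chr15:101834616-101834908) and a 1329-bp interval (chr15:101856051-101857380). The first 3 touch end to end over 1416 bp, and the last lies 21.1 kb further along the chromosome. The window was chosen by measured values: its 1058-bp interval was known to be high in P21 neurons, both against P21 non-neurons and against P0 neurons. These contrasts and the interaction built from them are therefore given with their errors and without a p-value or a call, for all 4 intervals. Cell type at P0 and age in non-neurons are not known to have chosen the window and were tested. They share the P0 neuron and P21 non-neuron libraries with the contrasts that did.

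All animals were inbred male mice of the strain C57BL/6, and the labels name no engineered allele and no treatment. Hypothalami were taken at postnatal day 0 (P0, the day of birth) and at P21, and nuclei that stained for NeuN, a nuclear protein of neurons, were sorted from those that did not (non-neurons). There were 5 libraries for P0 neurons, 5 for P0 non-neurons, 5 for P21 neurons and 5 for P21 non-neurons, labelled as biological replicates, and each sample pooled 2 hypothalami. The assay cuts unmethylated CCCGGG sites first, and only intervals with methylated sites at both ends are then ligated to adaptors and amplified. Between 5663740 and 9998110 reads were counted per library. Values are CPM, the count of an interval relative to the TMM-scaled library size, and more CPM at an interval stands for more methylation at its 2 end sites, on a relative scale. CPM depends on interval length and amplification too, so levels are compared between groups and not between intervals. The sorted fractions are mixtures, and a higher value can come from more nuclei with methylated sites or from a change in which cells were sorted; these cannot be told apart. The identity of the fractions was not checked against marker genes, because intervals were not placed on genes.

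Keratins build the intermediate filaments of epithelial cells. Keratin 8, a type II keratin, and keratin 18, a type I keratin, pair with each other, and each is unstable without its partner. They are the filament pair of simple epithelia such as liver, gut and gland ducts and among the earliest keratins made in the embryo. Neurons build their filaments from neurofilament proteins instead, and astrocytes from vimentin and glial fibrillary acidic protein. Krt18 lies apart from the other type I genes, next to Krt8 at the end of the type II cluster. In the RefSeq gene order of GRCm38, 2 long non-coding RNA genes, Gm36026 and Gm41404, stand between Krt8 and Krt18. Krt78 lies on the other side of Krt8. On the other side of Krt18 come the long non-coding RNA gene Gm41405 and Eif4b, which encodes a translation initiation factor. Krt8 and Krt18 are read away from each other, Krt8 from the minus and Krt18 from the plus strand.

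The RefSeq promoters of both genes (GRCm38.p6, 250 bases before to 50 after the gene's start, read 5′ to 3′ on the gene's strand) are shown because the assay reads methylation only at CCCGGG, which is set in capitals. The Krt8 promoter is chr15:102004293-102004592 on the minus strand and the Krt18 promoter chr15:102027966-102028265 on the plus strand.
Krt8: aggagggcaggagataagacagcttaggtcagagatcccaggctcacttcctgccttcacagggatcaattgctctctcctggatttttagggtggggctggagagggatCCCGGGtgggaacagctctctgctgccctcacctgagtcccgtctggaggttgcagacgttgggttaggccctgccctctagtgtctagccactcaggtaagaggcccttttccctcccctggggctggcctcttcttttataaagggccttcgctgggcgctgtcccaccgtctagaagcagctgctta
Krt18: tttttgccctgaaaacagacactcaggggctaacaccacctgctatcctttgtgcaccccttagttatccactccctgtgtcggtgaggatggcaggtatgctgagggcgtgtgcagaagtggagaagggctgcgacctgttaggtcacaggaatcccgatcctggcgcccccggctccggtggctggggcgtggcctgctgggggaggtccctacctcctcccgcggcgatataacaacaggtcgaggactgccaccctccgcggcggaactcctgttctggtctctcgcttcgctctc
The Krt8 promoter holds 1 CCCGGG, which reads the same on both strands, starting 140 bases before the gene's start. The Krt18 promoter holds none, although it has 17 CpG dinucleotides against 6 in the Krt8 promoter. Of the 32851 promoters in the same table, 13.5% hold at least 1 CCCGGG. Of 7 other keratin genes listed beside the pair, 5 had a promoter in that table (Krt5, Krt7, Krt14, Krt20 and Krt23), and 0 of those 5 held a CCCGGG, whereas Krt19 and Krt80 had none listed. The intervals are on mm9 and the promoters on GRCm38, so no interval was assigned to an exon, an intron or either promoter, and whether the Krt8 promoter site ends one of the intervals was not determined.

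At the 1058-bp interval, reads were almost confined to P21 neurons. Replicates 1 to 5 of P21 neurons had 344, 440, 450, 408 and 346 reads, or 43.58, 38.71, 46.09, 44.84 and 39.1 CPM. P21 non-neurons had 7, 4, 13, 9 and 10 reads, or 0.98, 0.56, 1.61, 1.25 and 1.17 CPM. P0 neurons had 2, 4, 5, 1 and 3 reads, and P0 non-neurons 3, 1, 2, 1 and 1. Every P21 neuron library lay far above the other 15, a separation that lies in the contrasts that chose the window. How many intervals of the whole table separate P21 neurons in this way was not counted, for this or the other window intervals. Among non-neurons the lowest P21 library had 4 reads (0.56 CPM) and the highest P0 library 3 (0.46 CPM). How many intervals of the whole table separate the ages of non-neurons was not counted either, so nothing is read from this gap. As group means P21 neurons held 42.5 ± 3.37 CPM, P21 non-neurons 1.11 ± 0.38, P0 neurons 0.49 ± 0.27 and P0 non-neurons 0.25 ± 0.13 (SD, n = 5 each). The P21 neuron libraries spread by 7.94% of their mean. The interval passed the filter on low counts, which asked for more than 1.42 CPM in at least 5 libraries, through the P21 neurons.

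The 66-bp interval, which shares a cut site with each of its neighbours, had reads in P21 neurons and next to none elsewhere. P21 neurons had 9, 16, 13, 17 and 10 reads in replicates 1 to 5, or 1.38 ± 0.30 CPM (SD, n = 5). P21 non-neurons had 1 read in all, in replicate 2, P0 neurons 1 read, in replicate 2, and P0 non-neurons 0 reads. No P21 neuron library overlapped a library of another group. The interval failed the filter and was not tested, as was usual for its length: 161 of the 2426 intervals under 100 bp (6.64%) passed, against 54.8% of longer ones. From the pooled reads, the ratio of P21 neurons to P21 non-neurons was 52.7 (65 reads against 1; exact 95% interval 9.14 to 2114.7). That of P21 to P0 neurons was 42.3 (65 reads against 1; 7.33 to 1695.6). These intervals cover counting error only. P0 non-neurons and P21 non-neurons both stayed at or under 3 reads over the group, so no fold is given for age in non-neurons.

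The 292-bp interval, the next in the chain, carried reads in all 4 groups and most of them in P21 neurons. P21 neurons had 25.46, 17.86, 23.35, 20.33 and 18.08 CPM in replicates 1 to 5, and P21 non-neurons 9.07, 8.14, 8.9, 8.06 and 5.75 CPM. P0 neurons had 2.59, 2.85, 5.63, 5.15 and 5.76 CPM, and P0 non-neurons 3.97, 5.93, 4.9, 3.86 and 4.5 CPM. P21 neurons stood above all other libraries without overlap, the P0 groups overlapped each other, and P21 non-neurons lay in between, with replicate 5 just below the highest P0 non-neuron library. Replicates 1 and 2 of P0 neurons were lower than the other 3. The group means were 21.02 ± 3.33 CPM (P21 neurons), 7.98 ± 1.32 CPM (P21 non-neurons), 4.40 ± 1.55 CPM (P0 neurons) and 4.63 ± 0.84 CPM (P0 non-neurons) (SD, n = 5 each).

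The 1329-bp interval lies apart from the chain and shares no cut site with it. P21 neurons had 17.86, 19.09, 16.7, 16.16 and 15.14 CPM in replicates 1 to 5. P21 non-neurons had 2.09, 8.42, 3.09, 4.03 and 6.34 CPM. P0 neurons had 4.84, 5.1, 4.4, 5.83 and 3.79 CPM, and P0 non-neurons 4.43, 3.69, 2.72, 3.7 and 4.5 CPM. P21 neurons again lay above all 15 other libraries, which overlapped one another across the 3 remaining groups. P21 non-neurons were the most uneven, with a spread of 53.5% of the mean and 15 to 60 reads per library, replicates 2 and 5 being the highest. On average P21 neurons had 17.0 ± 1.53 CPM, P21 non-neurons 4.80 ± 2.57, P0 neurons 4.79 ± 0.77 and P0 non-neurons 3.81 ± 0.72 (SD, n = 5 each).

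**Figure D1:**
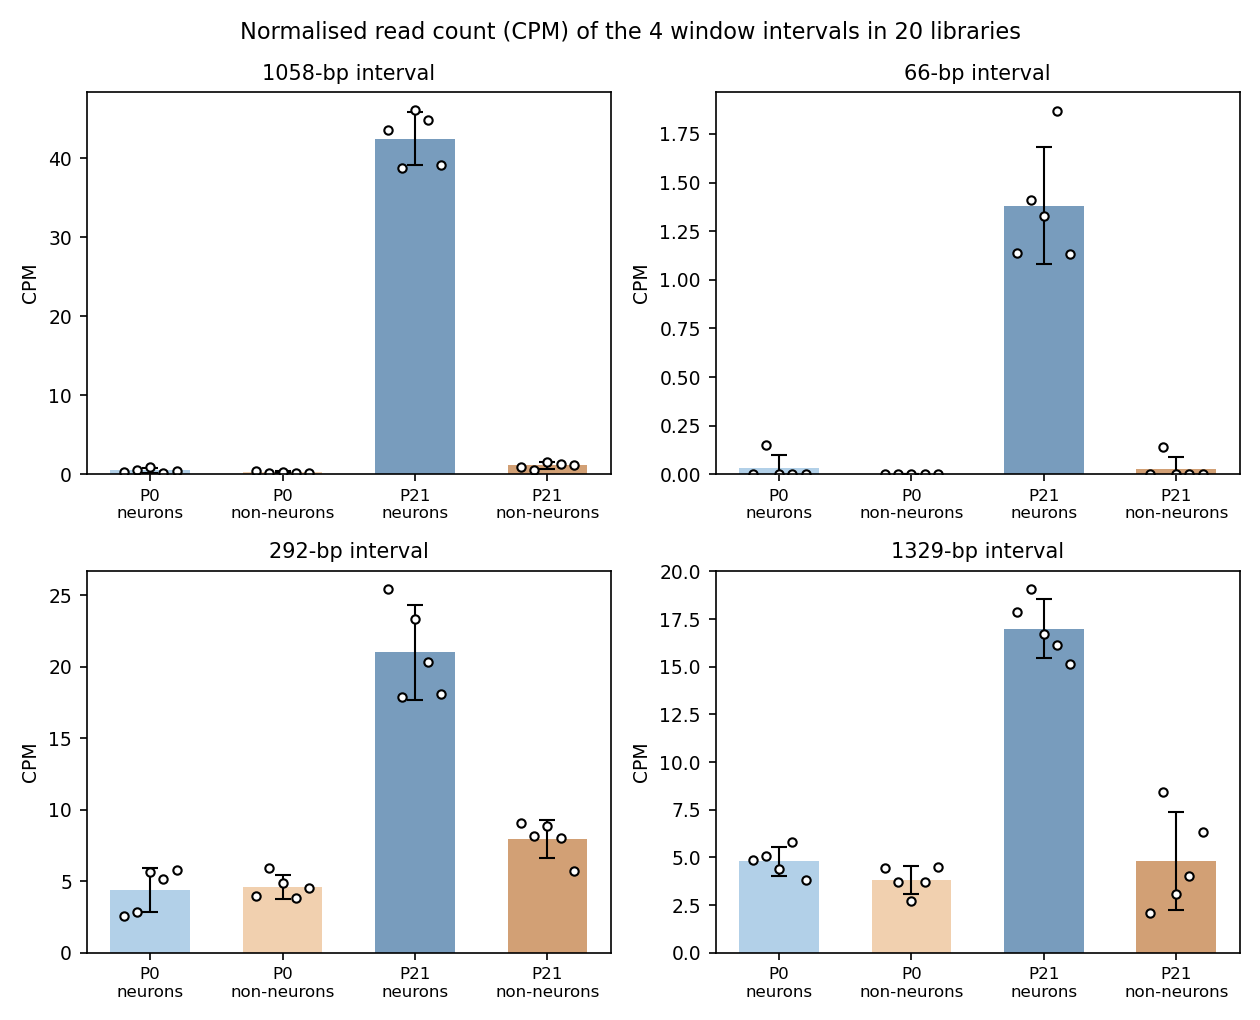
Normalised read count (CPM, linear axes that differ between panels) of the 1058-bp, 66-bp, 292-bp and 1329-bp intervals in the 4 groups; circles are the 5 libraries of a group in replicate order, bars the mean and whiskers the SD, not drawn below 0. P21 neurons are the highest group in every panel, at means of 42.5, 1.38, 21.02 and 17.0 CPM.

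At birth neurons and non-neurons were compared first, and the window gave no call. The 1058-bp interval passed the filter through the P21 neurons alone, so its P0 value is given without a p. With edgeR's quasi-likelihood test neither the 292-bp nor the 1329-bp interval differed at a Benjamini-Hochberg adjusted p under 0.05. Neither did at an unadjusted p under 0.05, and DESeq2 called neither. Of all 26679 tested intervals 9.78% were called at P0, in either direction, and at 9.4% the 5 neuron and 5 non-neuron libraries did not overlap. In the window both groups overlapped at all 3 intervals that passed the filter. The 1058-bp interval had a log2 fold change (neurons over non-neurons) of 0.94 ± 0.53 (SE) on 15 and 8 pooled reads, so that a difference was not detectable at this depth (2 SE on each side reach from -0.12 to 2.0). The 292-bp interval had -0.08 ± 0.22 (SE; edgeR adjusted p = 0.909; 2 SE from -0.52 to 0.37) and the 1329-bp interval 0.34 ± 0.26 (SE; edgeR adjusted p = 0.531; 2 SE from -0.18 to 0.85).

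At P21 all 3 tested intervals had more reads in neurons. This contrast helped to choose the window, so the values are a description. The log2 fold change of neurons over non-neurons was 5.22 ± 0.19 (SE) at the 1058-bp interval, a ratio of 37.2. It was 1.40 ± 0.17 at the 292-bp interval, a ratio of 2.63, and 1.82 ± 0.21 at the 1329-bp interval, a ratio of 3.53. Among all 26679 tested intervals the 1058-bp interval ranked 8 from the top of this contrast, and 93.6% and 96.2% of tested intervals lay below the 292-bp and 1329-bp intervals.

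Seen from the non-neurons, the distance between the cell types at P21 was uneven along the window. The P21 non-neuron mean came to 2.62% of the P21 neuron mean at the 1058-bp interval and 2.04% at the 66-bp interval, where it rests on 1 read. It came to 38.0% at the 292-bp interval and 28.2% at the 1329-bp interval. The 292-bp interval ends 1416 bp from the far end of the 1058-bp interval, so values of both kinds were found within the chain.

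With age, neurons gained reads at every interval of the window. This contrast too helped to choose the window and is described only. From P0 to P21 the 1058-bp interval rose in neurons from 0.49 to 42.5 CPM, a log2 fold change of 6.39 ± 0.23 (SE). On the pooled reads (1988 against 15) the ratio was 86.2, with an exact 95% interval from counting error of 52.1 to 154.0. The 292-bp interval rose by 2.25 ± 0.19 (SE), a ratio of 4.77, and the 1329-bp interval by 1.83 ± 0.22 (SE), a ratio of 3.54. The 1058-bp interval ranked 7 from the top of all tested intervals, and 96.9% and 94.8% of tested intervals lay below the 292-bp and 1329-bp intervals.

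In non-neurons the 292-bp interval rose with age and the 1329-bp interval did not pass the test, while 28.5% of all tested intervals were called as rising. The 292-bp interval rose from 4.63 to 7.98 CPM, a log2 fold change of 0.78 with an SE of 0.20 (edgeR adjusted p = 0.00133), higher in 4 of the 5 P21 libraries than in any at P0. The 1329-bp interval went from 3.81 to 4.80 CPM, which did not pass the test (log2 fold change 0.34 ± 0.25, SE; edgeR adjusted p = 0.249; 2 SE from -0.16 to 0.84). That value depended on single P21 non-neuron libraries: it was 0.06 without replicate 2 (edgeR adjusted p = 0.863), 0.21 without replicate 5 (0.522) and 0.53 without replicate 1 (0.0561), the adjusted p over all its alternatives lying between 0.0561 and 0.863. The 1058-bp interval had few reads in non-neurons, 43 at P21 and 8 at P0 in all, or 1.11 and 0.25 CPM. It passed the filter through the P21 neurons alone, so its change in non-neurons is given as a value without a p. The ratio of its pooled reads was 4.54 (exact 95% interval 2.11 to 11.2, counting error only), and the fitted log2 fold change was 2.11 ± 0.43 (SE).

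The interaction gives the change with age in neurons minus that in non-neurons. It was 4.28 ± 0.73 on the log2 scale (SE) at the 1058-bp interval, 1.47 ± 0.28 at the 292-bp interval and 1.48 ± 0.34 at the 1329-bp interval. It contains the contrasts that chose the window, so these values too are a description. The 1058-bp interval ranked 47 from the top among all tested intervals, and its P0 groups hold 15 and 8 reads.

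**Figure D2:**
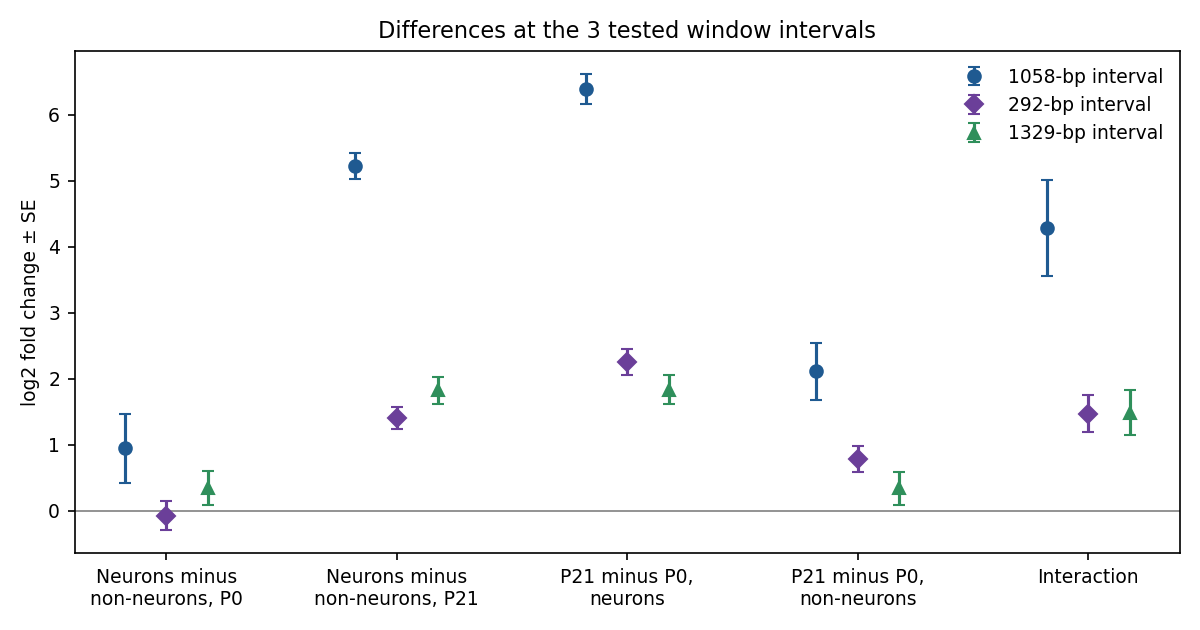
Log2 fold change with its SE (edgeR fit over all 20 libraries) at the 3 tested intervals for the 5 comparisons named on the x axis. The 1058-bp interval is the highest of the 3 in each comparison, reaching 6.39 for age in neurons, and the 292-bp and 1329-bp intervals lie between -0.08 and 2.25.

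**Figure D3:**
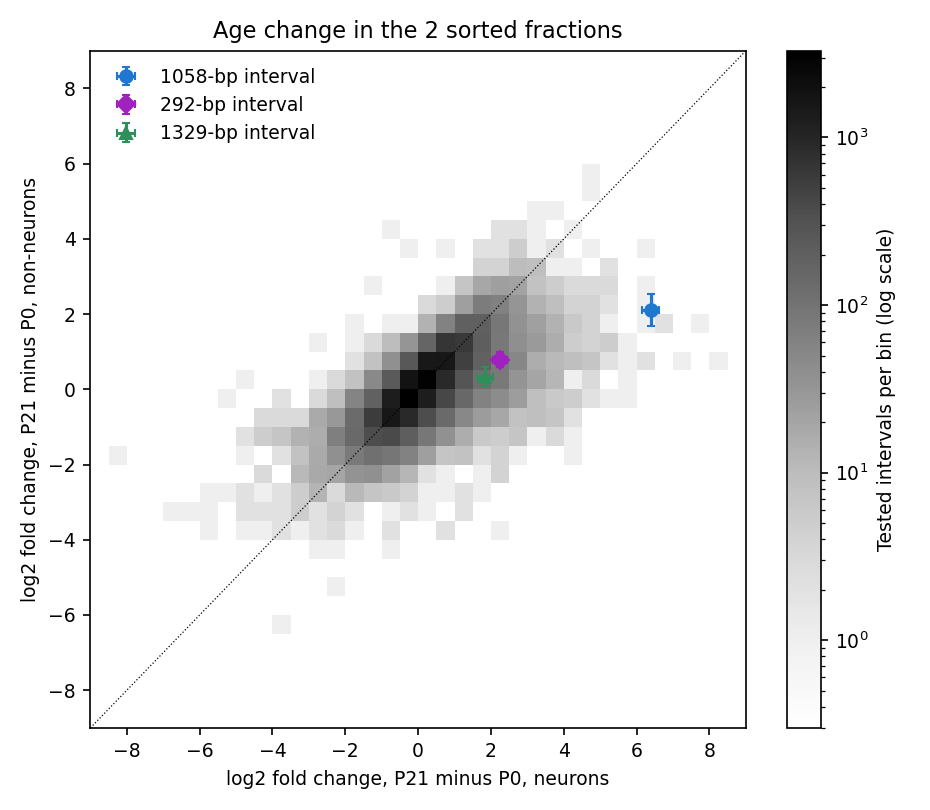
Log2 fold change from P0 to P21 in neurons (x axis) and in non-neurons (y axis), which share no library; grey squares count all 26679 tested intervals in bins, on a log colour scale, and coloured symbols are the window intervals with their SE. All 3 lie below the dotted line of equal change, the 1058-bp interval at 6.39 in neurons and 2.11 in non-neurons.

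The edges of the window were set by position, and the next interval below had another course. The nearest interval below, chr15:101690618-101691229, lies 142.3 kb from the 1058-bp interval. There P0 neurons had 18.05 ± 2.70 CPM, P0 non-neurons 18.3 ± 1.06, P21 neurons 17.9 ± 1.62 and P21 non-neurons 24.97 ± 3.11 (SD, n = 5 each), so that P21 non-neurons had the highest mean. The nearest above, chr15:101928735-101930608, lies 71.4 kb beyond the 1329-bp interval and did not pass the filter. There P0 neurons had 1.20 ± 0.69 CPM, P0 non-neurons 0.65 ± 0.28, P21 neurons 1.37 ± 0.51 and P21 non-neurons 0.42 ± 0.32 (SD, n = 5 each), and its neuron libraries of both ages overlapped. P21 neurons had the highest mean there too, with 63 pooled reads against 16 in P21 non-neurons, and a difference was not tested.

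Within 500 kb on either side of the window the table listed 50 further intervals, of which 29 were tested. In these flanks 6 intervals (20.7%) were called as higher in P21 neurons than in P21 non-neurons and 2 (6.9%) as lower, with a median log2 fold change of -0.08. For age in neurons 8 rose (27.6%) and 10 fell (34.5%), with a median of -0.01, and for age in non-neurons 7 rose (24.1%) and 6 fell (20.7%), with a median of -0.16. At P0 1 (3.45%) was called as higher in neurons, against 6.92% of all tested intervals, and 3 (10.3%) had a positive interaction. Of all tested intervals 20.8% were higher and 4007 of the 26679 lower in P21 neurons, 31.0% rose and 26.3% fell with age in neurons, 28.5% rose and 25.8% fell with age in non-neurons, and 10.9% had a positive interaction. Without P21 non-neuron replicate 1, 16.7% of the tested flanking intervals were called for cell type at P21, in either direction, against 27.6% with it. The highest flank value of the interaction, 3.77 ± 0.79 (SE), was at chr15:102186190-102186642, 316.2 kb above the window and named after its values were seen. There P21 neurons had 2.14 ± 0.61 CPM, P21 non-neurons 0.24 ± 0.21, P0 neurons 0.389 ± 0.136 and P0 non-neurons 0.635 ± 0.463 (SD, n = 5 each). Every mean but that of P21 neurons was under the 1.42 CPM of the filter, so the value rests on few reads.

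**Figure D4:**
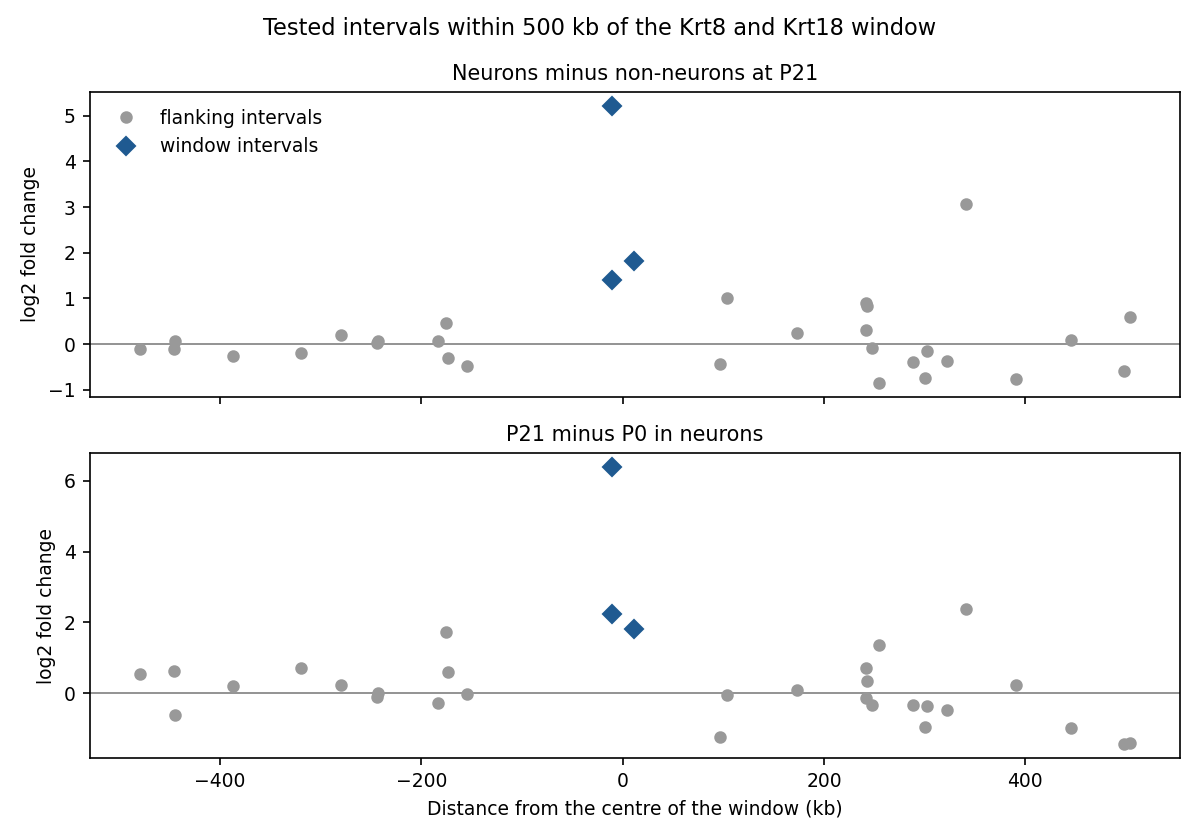
Log2 fold change of neurons over non-neurons at P21 (upper panel) and of P21 over P0 in neurons (lower panel) for each tested interval, by its distance in kb from the centre of the window; diamonds are the 3 window intervals and grey circles the 29 flanking ones. The window intervals lie at 1.40 to 5.22 and at 1.83 to 6.39, and the flank medians at -0.08 and -0.01.

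Intervals elsewhere in the genome were ranked by how closely their log2 CPM followed the 1058-bp interval over the 20 libraries (Pearson r, a measure of likeness only, since the libraries fall into groups and share their depth). The 5 most alike were chr17:15331706-15332309 (r = 0.987), chr2:119569249-119570136 (r = 0.986), chr11:63770701-63771886 (r = 0.984), chr13:100009232-100010027 (r = 0.984) and chr10:127158090-127158778 (r = 0.983). They were on 5 other chromosomes. All were highest in P21 neurons, which follows from how they were picked. At P21 the neurons and non-neurons of chr17:15331706-15332309 had 270.0 ± 43.2 and 32.5 ± 4.71 CPM, and those of chr10:127158090-127158778 had 96.3 ± 7.74 and 6.95 ± 1.10 CPM (SD, n = 5 each). In P0 neurons these 2 intervals had 27.6 ± 4.23 and 5.43 ± 1.05 CPM (SD, n = 5 each). Within the window likeness to the 1058-bp interval was lower at the other tested intervals. It was r = 0.916 at the 292-bp interval, with 354 intervals more alike, and r = 0.871 at the 1329-bp interval, with 771 more alike. Only tested intervals were ranked, so the 66-bp interval has no r.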

How the data were processed

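Per the labels, libraries were made by methylation-specific amplification from sorted nuclei and sequenced as paired ends. The values are raw read counts per interval as deposited by the authors; this unit was inferred because all values are whole and library totals differ. FastQC 0.10.1, cutadapt, Bowtie 0.12.9 and mm9 are named per the submitters' processing notes; the rule that assigned reads to intervals is not stated there. Columns were matched to samples by age, cell type letter and replicate number.

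In R 4.3.3 with edgeR 4.0.16, low intervals were removed (filterByExpr, minimum count 10, total 15), and counts were scaled by TMM and fitted with one mean per group over all 20 libraries (glmQLFit, robust; glmQLFTest). Calls are Benjamini-Hochberg adjusted p under 0.05 over the 26679 tested intervals. The SE is the log2 fold change divided by the square root of F. The functions were tested on simulated data. Ratios of pooled reads have exact Clopper-Pearson 95% intervals, which cover counting error only, since reads carry no molecular identifiers. All 4 window intervals were described whatever their values, and the 5 intervals most like the member with the largest interaction were named. The window, lists and rules were chosen with earlier results of these data known. Alternatives were 3 other scalings (RLE, totals, upper quartile), other filters, DESeq2 1.42.0, only the compared groups, a replicate block, P0 subsets and leaving out each library. Cell type marker genes need an mm9 annotation and were not analysed here.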

Additional observations from a re-analysis of the deposited data

Results flagged for a closer look

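At the 3 tested intervals of the window the gap between neurons and non-neurons differed between the ages, by 4.28 at the 1058-bp, 1.47 at the 292-bp and 1.48 at the 1329-bp interval on the log2 scale. The contrasts that chose the window are part of these values. In 15 sets of 5 libraries with any spread, 2 held a library apart from the rest. Both are the 66-bp interval, in P0 neurons and in P21 non-neurons, where replicate 2 had 1 read and the other 4 libraries 0, so that the gap was 1.0 of the range. A set with a single read always gives this gap, so nothing is read from either mark.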

How the results depend on the processing

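At the 3 tested intervals 433 of 439 recomputed values kept direction and threshold side. Nothing is read from this count, which includes the contrasts that chose the window. The 292-bp interval turned direction at P0, never passing the test: it stood at 0.39 with only replicates 4 and 5 kept at P0, and between -0.20 and 0.06 when each library was left out, above 0 without P0 neuron replicate 1 (0.06), P0 neuron replicate 2 (0.05) or P0 non-neuron replicate 2 (0.03). P0 replicates 1 to 3 and 4 to 5 were separated because an earlier look at these data saw them apart. With replicates 4 and 5 alone at P0, 1 window interval had an interaction call against 3, from which again nothing is read. With only the compared groups, the 1058-bp interval failed the filter for age in non-neurons and for cell type at P0. The 292-bp interval was called for age in non-neurons in that fit too. Without a filter the 66-bp interval was fitted too. With the replicate block the 292-bp and 1329-bp intervals gave the same calls for cell type at P0 and age in non-neurons. The P21 value of the 1058-bp interval was 5.23 with the block against 5.22. Deviations of same-numbered libraries correlated at 0.05 to 0.21 between P0 neurons and non-neurons and -0.01 to 0.32 at P21, and 2 of 5 were best with their own number at each age, so the numbers were not taken as pairs. Totals alone moved the median of all intervals by 0.20 (neurons) and 0.22 (non-neurons) for age, and upper-quartile factors by -0.19 for cell type at P21; the window's calls were the same under both. Of tested flanking intervals, 48.3% were called at P21 with upper-quartile factors (27.6% with TMM), 37.0% for age in neurons without a filter (62.1% with it) and 0% at P0 with replicates 1 to 3 (3.45% with all). Leaving out each library gave flank shares of 3.33% to 6.67% at P0 (6.67% without P0 non-neuron replicate 1), 16.7% to 33.3% at P21 (16.7% without P21 non-neuron replicate 1), 55.2% to 62.1% and 43.3% to 48.3% for age in neurons and in non-neurons, and 6.67% to 13.8% for the interaction (10.3% with all; 6.67% without P0 neuron replicate 1 or 3, P0 non-neuron replicate 1 or P21 non-neuron replicate 1). Flanks of 100 kb hold 2 tested intervals, of which 0% were called at P0, 50% at P21, 100% for age in non-neurons and 50% in the interaction. Of all tested intervals 9.78% were called at P0, against 5.52% without a filter and 6.39% and 3.45% with replicates 1 to 3 or 4 and 5; without a filter the share fell from 35.8% to 21.4% at P21 and from 14.1% to 8.2% in the interaction, the latter 7.66% with replicates 4 and 5. Depth limits the P0 values of the 1058-bp and 66-bp intervals most, at 0 to 5 reads per library.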
